A study of Homo sapiens with 6 samples.

Results

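The genes described here are the subunits of the transcription factor NF-kB and the inhibitors that act back on it, measured by RNA sequencing in 2 cultures of human cells. The members, chosen by name with earlier results of these data known, are NFKB1, NFKB2, RELA, RELB, NFKBIA, NFKBIB, TNFAIP3 and BIRC3, and all 8 were found by symbol among the 20503 genes of the deposited count table. T47D is a breast cancer line that the labels call ER-positive. T47D-TR is a tamoxifen-resistant subline derived from T47D and kept in medium with 1 µM 4-hydroxytamoxifen, the active metabolite of tamoxifen, while no drug is given for T47D. Serum, antibiotics and the base medium DMEM were the same for both, and each was sequenced in 3 libraries of 17199315 to 19867230 counts. The subline and the drug changed together, so their parts in any difference cannot be told apart. The labels do not say whether T47D-TR is 1 clone or whether the libraries of a group come from separate cultures. The p-values therefore reflect the spread of these libraries alone, which may be technical.

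NF-kB is a family of dimers built from Rel subunits. In resting cells the dimers are held in the cytoplasm by IkB proteins, and signals from receptors of the TNF, interleukin-1 and Toll-like families activate the IKK kinases, which mark IkB for destruction and free the dimers to enter the nucleus. In the canonical branch the working dimer is mostly p65 with p50, and in the noncanonical branch RelB with p52. Several of the genes that NF-kB induces encode its own inhibitors, so that the response limits itself. In breast cancer cells the pathway is known for links to survival and to endocrine resistance.

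The labels were checked first against marker genes. ESR1, the oestrogen receptor alpha gene that defines an ER-positive line, had 3, 0 and 2 counts in the T47D libraries and 2, 4 and 3 in the T47D-TR libraries, which goes against the label in both groups, and T47D and T47D-TR below mean the libraries so labelled. Some other luminal markers were low as well. The luminal transcription factor gene GATA3 stood at 1.23 ± 0.140 CPM (library-scaled counts) in T47D and 0.625 ± 0.0774 in T47D-TR. The E-cadherin gene CDH1 stood at 2.12 ± 0.742 and 5.504 ± 2.40 CPM. The mesenchymal marker VIM stood at 770 ± 10.9 and 1297 ± 22.4 CPM. The levels of GATA3, CDH1 and VIM, too, go against a luminal label. In contrast, the luminal keratin genes KRT8, at 1338 ± 26.0 and 1580 ± 120 CPM, and KRT18, at 683 ± 18.7 and 928 ± 90.2 CPM, were high. Further luminal markers lay between these: XBP1 at 61.0 ± 1.84 and 156 ± 16.2 CPM, and EPCAM at 38.6 ± 0.587 and 14.7 ± 2.25 CPM. KRT19 stood at 27.8 ± 1.23 and 112 ± 3.62 CPM, and FOXA1 at 5.64 ± 0.500 and 10.7 ± 1.05 CPM. Of 10 luminal markers, 6 were called higher and 2 lower in T47D-TR, where 63% of all tested genes were called, with SPDEF not in the table and ESR1 too low to test. Of 9 mesenchymal and basal markers, 5 were called higher, 3 were not called and KRT14 was too low to test. KRT14 had 0 counts in all T47D libraries and 2, 1 and 15 in T47D-TR. Leukocyte markers, which matter because NF-kB is strongly used in those cells, were summed over the 6 of 10 in the table at 23.9 to 27.6 CPM in T47D, and in T47D-TR at 57.3 to 75.7 CPM. Most of that sum was CD68, a lysosomal gene also found outside leukocytes, at 23.7 ± 1.92 and 64.6 ± 9.17 CPM, and the defining leukocyte gene PTPRC had 2 counts in each T47D library and 1, 0 and 1 in T47D-TR. CD8A, a T cell gene, was called lower, at 1.41 ± 0.147 and 0.558 ± 0.0869 CPM. Of 8 endothelial and fibroblast markers, summed over the 7 in the table at 37.1 to 40.6 and 45.3 to 52.9 CPM, PECAM1 rose and LUM and PDGFRB fell. COL1A1 was not called, at 18.2 ± 1.04 and 17.5 ± 1.07 CPM, and VWF, COL3A1 and DCN were too low to test. COL3A1 had 0, 0 and 1 counts in T47D and 3, 1 and 37 in T47D-TR. DCN had 0 counts in all T47D libraries and 4, 0 and 19 in T47D-TR, so both were found mostly in T47D-TR replicate 3. PECAM1 went from 0.669 ± 0.0287 to 27.3 ± 3.81 CPM, and LUM from 13.9 ± 1.80 to 0.253 ± 0.0873 CPM, log2 changes of 5.33 and -5.75 that exceed those of all 8 NF-kB members. The part of other cell types in the results below was not tested.

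Short sequences before annotated starts of the genes are shown. NF-kB binds a kappaB site there in several of its own inhibitors, which is the textbook basis of the feedback. The motif GGGNNTTTCC was searched on both strands in RefSeq windows (GRCh38.p14) from 250 bases before to 50 after each annotated start. It is narrower than the kappaB consensus GGGRNNYYCC (N any base, R A or G, Y C or T) at its T bases. At the first base after GGG it is wider, since any base is allowed there. The RefSeq starts can differ from the starts of the GENCODE v29 gene positions given below. By those positions the sequences printed for NFKB2, NFKBIB and TNFAIP3 lie inside the gene. Windows were found for 7 of the 8 genes, all but RELB. The motif occurred in 6 of these 7, the exception being RELA, and in 1.91% of all 35116 windows. Counted by gene over any of its windows, it occurred in 2.72% of the 10491 tested genes with a window. The consensus GGGRNNYYCC was also found in 6 of the 7 members, but in 17.1% of those tested genes and 11.3% of all windows. A match is a description of letters, not a binding site. Each line gives 30 bases in the direction of the gene, 5′ to 3′, with the motif or its reverse complement in capitals.
NFKB1, chr4:102501300-102501329, plus strand: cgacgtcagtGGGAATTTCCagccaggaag
NFKB2, upstream start, chr10:102394490-102394519, plus strand: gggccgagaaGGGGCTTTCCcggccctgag
NFKB2, downstream start, chr10:102395674-102395703, plus strand: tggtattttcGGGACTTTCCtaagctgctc
NFKBIA, chr14:35404811-35404840, minus strand: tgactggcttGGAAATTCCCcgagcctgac
NFKBIB, chr19:38899931-38899960, plus strand: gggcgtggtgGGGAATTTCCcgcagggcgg
TNFAIP3, chr6:137867188-137867217, plus strand: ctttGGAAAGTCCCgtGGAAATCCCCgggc
BIRC3, chr11:102317275-102317304, plus strand: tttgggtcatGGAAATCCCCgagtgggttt
NFKB1, NFKBIA and NFKBIB held the same word, GGGAATTTCC. It began 49 bases before the RefSeq start in NFKB1, 81 in NFKBIA, there on the opposite strand, and 28 in NFKBIB. NFKB1 and NFKBIB each had 2 windows, and the motif lay only in the upstream one of NFKB1 and the downstream one of NFKBIB. NFKB2 had 3 windows, and the one furthest upstream held no motif. TNFAIP3 was the member with 2 motifs in 1 window, beginning 67 and 55 bases before the start, and its second word, GGGGATTTCC, was also the word of BIRC3. As given below, genes with the motif lay on both sides: NFKB2, TNFAIP3 and BIRC3 were higher in T47D-TR, and NFKB1, NFKBIA and NFKBIB lower.

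**Figure D1:**
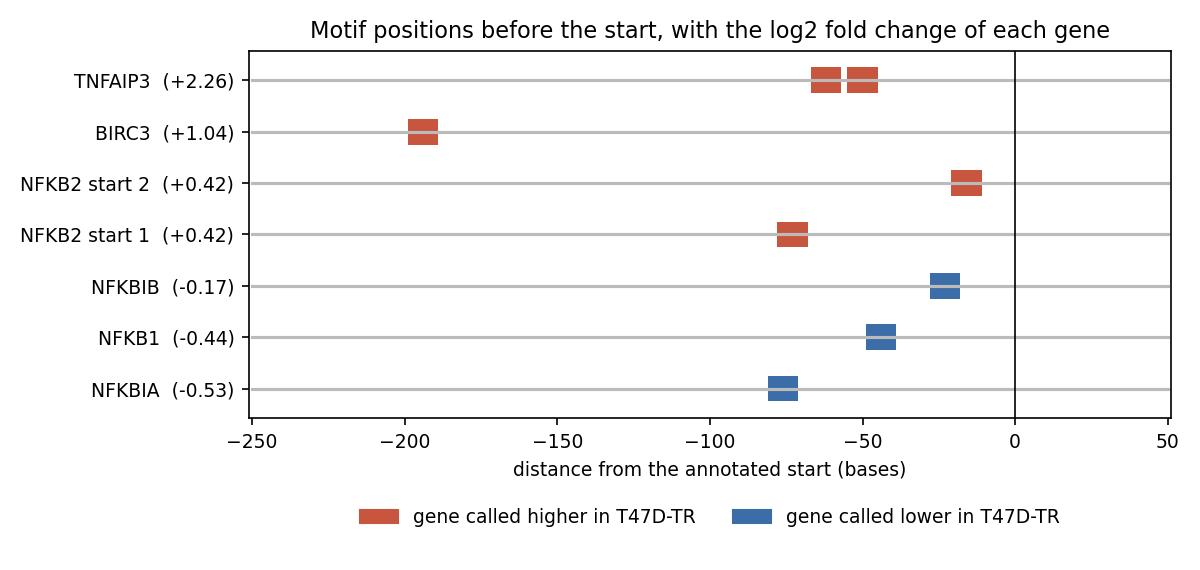
Positions of the motif GGGNNTTTCC (bars of 10 bases, either strand) in the windows that hold it, as distance in bases from the annotated RefSeq start. Each gene's log2 fold change (T47D-TR over T47D) is in brackets. The motif lay 21 to 81 bases before the start in all windows but that of BIRC3, where it began 199 bases before it, and genes called higher and genes called lower both carried it.

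Over the whole table, edgeR called 63% of 15961 tested genes at an adjusted p under 0.05, 32.5% higher and 30.5% lower in T47D-TR. All 8 members passed the filter on low counts. Of them 4 were called higher (NFKB2, RELA, TNFAIP3, BIRC3), 3 lower (NFKB1, NFKBIA, NFKBIB), and RELB was not called. The median log2 change of the 8 was 0.15, against 0.0019 for all tested genes. These 7 of 8 calls (87.5%) stand beside 70.1% of the 11737 tested genes at or above the mean CPM of RELB, the lowest member. The libraries of the groups did not overlap for 7 of 8 members, against 68.3% of tested genes. Against this background the number of calls is not read as particular to these genes. In such bulk libraries, fewer cells with a transcript and less of it per cell cannot be told apart.

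**Figure D2:**
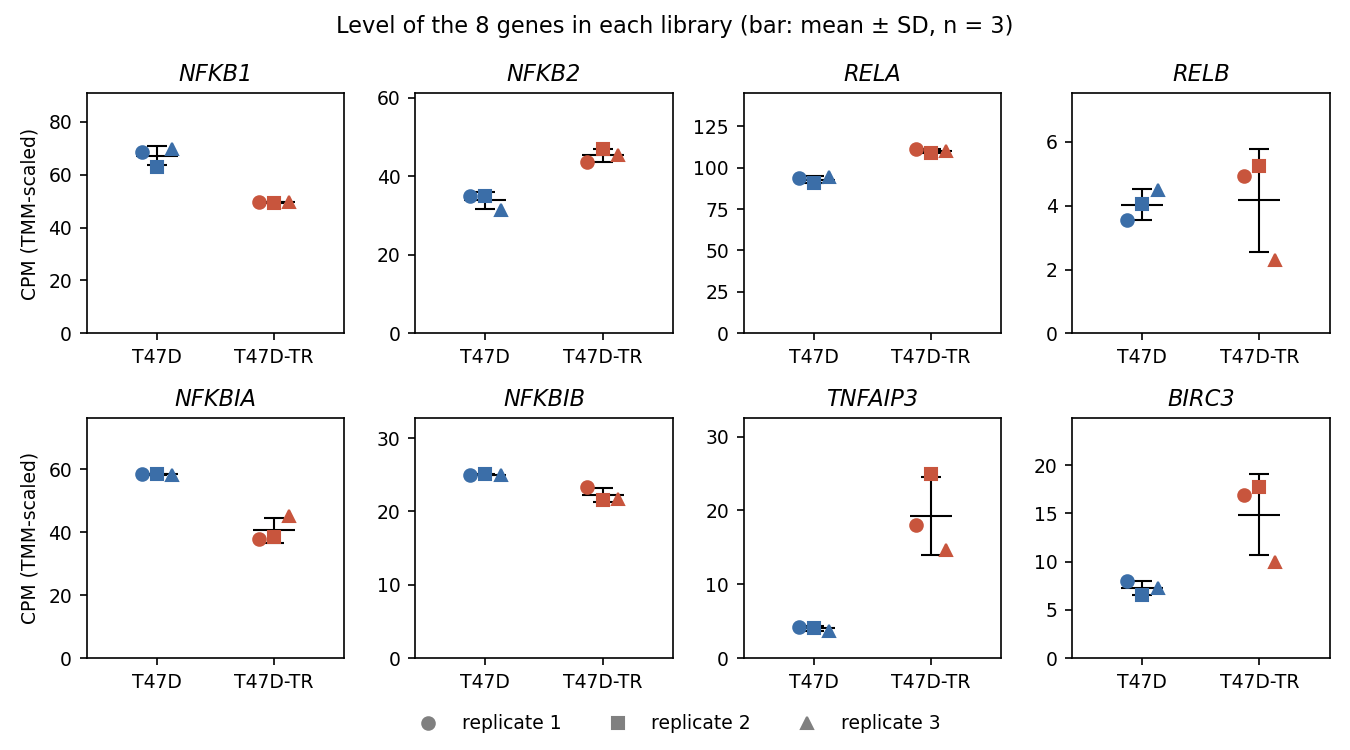
CPM (TMM-scaled, linear axes from 0, each on its own scale) of each gene in the 3 T47D libraries (blue) and the 3 T47D-TR libraries (red), with replicates as different marks and the mean ± SD of a group as a bar. The groups are apart for every gene but RELB, and T47D-TR replicate 3 lies below the other T47D-TR libraries for RELB, TNFAIP3 and BIRC3.

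The subunit genes moved in different directions. RELA encodes p65, the subunit that carries the activating domain of the canonical dimer (chromosome 11, 65653596 to 65663094, minus strand, GRCh38). It stood at 93.6, 90.4 and 94.1 CPM in T47D and at 111, 109 and 110 CPM in T47D-TR, so every T47D-TR library was above every T47D library by a small margin. The log2 fold change was 0.25 ± 0.02 (SE, 3 libraries a group), an increase of 18.6% (edgeR adjusted p = 0.000421).

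NFKB1 encodes p105, the precursor that is processed to p50 and that can also act as an IkB (chromosome 4, 102501329 to 102617302, plus strand). Its libraries held 68.5, 63.0 and 69.7 CPM in T47D and 49.8, 49.4 and 49.6 CPM in T47D-TR. The T47D-TR libraries were almost equal to each other and all below the T47D libraries. NFKB1 fell by 0.44 on the log2 scale (SE 0.05, edgeR adjusted p = 2.05e-05).

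NFKB2 encodes p100, the precursor of p52 in the noncanonical branch and, uncut, an inhibitor of RelB (chromosome 10, 102394110 to 102402529, plus strand). It went the other way from NFKB1, with 35.0, 35.1 and 31.5 CPM in T47D and 43.8, 47.01 and 45.4 CPM in T47D-TR. All T47D-TR values were above all T47D values, and the log2 fold change was 0.42 ± 0.06 (edgeR adjusted p = 9.9e-05). Within a library, where depth and scaling cancel, the ratio of NFKB2 to NFKB1 per kilobase of merged exons was 0.765, 0.837 and 0.676 in T47D and 1.32, 1.43 and 1.37 in T47D-TR. Per kilobase the higher of these was thus NFKB1 in each T47D library and NFKB2 in each T47D-TR library. In CPM, NFKB1 was above NFKB2 in every library of both groups. The order within T47D-TR therefore depends on the merged exon lengths used, 5522 bases for NFKB1 and 3684 for NFKB2. The change of the ratio between the groups does not depend on them.

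RELB, the partner of p52 (chromosome 19, 45001430 to 45038198, plus strand), had few counts: 66, 79 and 84 in T47D and 95, 103 and 39 in T47D-TR. In CPM these are 3.55, 4.04 and 4.50 against 4.93, 5.25 and 2.31. The first 2 T47D-TR libraries lay above the whole T47D range and the third below it, so the groups overlapped. The log2 fold change was 0.06 ± 0.38 (edgeR adjusted p = 0.839), and without T47D-TR replicate 3 it was 0.34 (adjusted p = 0.0662), which is also not a call. With an SE of 0.38, a change of the size seen in NFKB2 was not detectable.

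REL, which encodes c-Rel and completes the subunits, differed by less than the spread between libraries, at 28.9 ± 0.677 and 29.04 ± 2.18 CPM (log2 0.01 ± 0.06, edgeR adjusted p = 0.922), a direction that flips with library size alone (-0.028) and voom (-0.055). Levels of different genes can be set side by side only per length, here as CPM per kilobase of merged GENCODE v29 exons, since the authors' own exon model is not named in the sources used here. On that scale RELA made up 51.4% to 52.0% of the transcripts of the 5 subunit genes in T47D and 54.7% to 56.8% in T47D-TR. The NFKB1 share went from 22.9% ± 0.856 to 15.4% ± 0.232 and the NFKB2 share from 17.3% ± 1.23 to 21.2% ± 0.833 (SD, n = 3 libraries). RELB (3.31% and 3.10%) and REL (4.84% and 4.44%) were minor in both groups, and the REL share depends on a long annotated 3′ end, since 50.7% of its exon bases also belong to another transcript model.

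**Figure D3:**
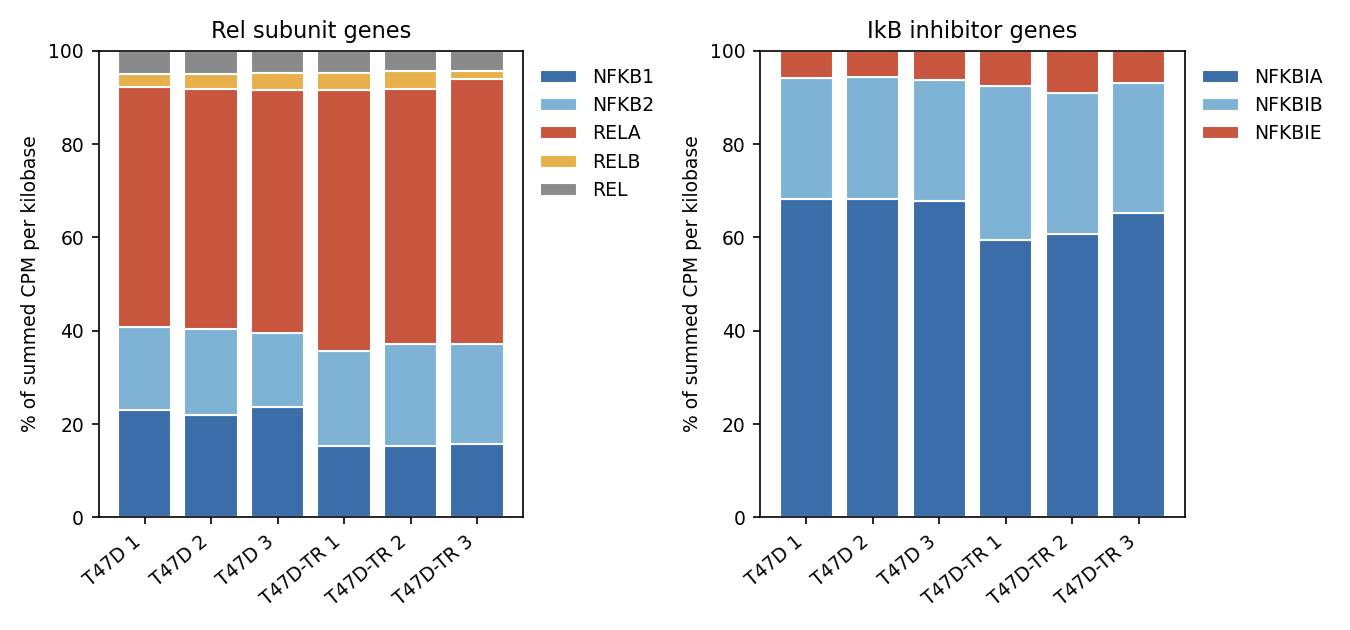
Share in percent of each gene in the summed CPM per kilobase of the 5 Rel subunit genes (left) and of 3 IkB inhibitor genes (right), 1 bar per library. RELA is the largest part of the left bars throughout, the NFKB1 part is smaller and the NFKB2 part larger in the 3 T47D-TR libraries, and the NFKBIA part of the right bars is smaller in all 3 of them.

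The IkB genes among the members were lower. NFKBIA encodes IkB-alpha, the main cytoplasmic anchor of p65 and a rapidly induced target of NF-kB (chromosome 14, 35401511 to 35404749, minus strand). It stood at 58.3, 58.6 and 58.2 CPM in T47D and at 37.7, 38.5 and 45.2 CPM in T47D-TR. The T47D libraries had a coefficient of variation of 0.28%. That is less than counting error alone gives at 1083 to 1145 counts, so it is not the precision of the measurement. The T47D-TR libraries were all lower, with replicate 3 the closest to T47D. NFKBIA fell by 0.53 on the log2 scale (SE 0.08, edgeR adjusted p = 2.58e-05), a decrease to 0.693 of its T47D level.

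NFKBIB encodes IkB-beta, an inhibitor that is less readily induced (chromosome 19, 38899700 to 38908893, plus strand). It had 24.9, 25.2 and 25.0 CPM in T47D and 23.3, 21.6 and 21.7 CPM in T47D-TR. The groups did not overlap, but the change was the smallest among the called members, at -0.17 ± 0.04 on the log2 scale (edgeR adjusted p = 0.0429). The call ended in 9 of 13 alternatives, among them DESeq2 (adjusted p = 0.122) and the fit with the replicate block (adjusted p = 0.0619), and the largest adjusted p was 0.124, without T47D-TR replicate 2.

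NFKBIE, the IkB-epsilon gene, did not differ beyond its spread, at 6.89 ± 0.439 and 6.95 ± 0.695 CPM (log2 0.02 ± 0.10, edgeR adjusted p = 0.922). Per kilobase, the 3 IkB genes summed to 45.1 ± 0.150 in T47D and 34.4 ± 1.81 in T47D-TR, while the 5 subunit genes summed to 53.0 ± 0.964 and 58.1 ± 0.859. Their quotient, the 5 subunit genes over these 3 IkB genes within a library, was 1.19, 1.15 and 1.18 in T47D and 1.76, 1.75 and 1.56 in T47D-TR. This split counts NFKB1 and NFKB2 as subunits although their uncut products also inhibit, and it leaves out the nuclear IkB genes given below. The quotient is therefore not a measure of net inhibition. RELA alone, per kilobase, stood at 0.9002, 0.866 and 0.906 times NFKBIA in T47D and at 1.65, 1.58 and 1.36 times in T47D-TR. On that scale the order of these transcripts differed between the groups, but in CPM RELA was above NFKBIA in every library. These are transcripts, and protein was not measured.

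The feedback genes outside the IkB family rose. TNFAIP3 encodes A20, a ubiquitin-editing enzyme that shuts off signalling above IKK (chromosome 6, 137867188 to 137883312, plus strand). It held 79, 81 and 69 counts in T47D and 349, 490 and 248 in T47D-TR, or 4.25, 4.14 and 3.70 CPM against 18.1, 25.0 and 14.7 CPM. The lowest T47D-TR library was far above the highest T47D library, although T47D-TR spread widely. With a 4.79-fold increase (log2 2.26 ± 0.23, edgeR adjusted p = 4.22e-07) it was the member that changed most.

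BIRC3 encodes cIAP2, a ubiquitin ligase that works beside the TNF receptors and, in the noncanonical branch, helps to keep the kinase NIK low (chromosome 11, 102317450 to 102339403, plus strand). Its counts were 148, 128 and 136 in T47D and 327, 347 and 169 in T47D-TR. In CPM, 7.97, 6.55 and 7.29 stood against 16.95, 17.7 and 10.01, so replicate 3 lay nearer to T47D than to the other T47D-TR libraries. BIRC3 rose 2.06-fold (log2 1.04 ± 0.27, edgeR adjusted p = 0.000302) and by 1.26 on the log2 scale without that library. Its neighbour and relative BIRC2, which encodes cIAP1, was not called, at 57.9 ± 3.59 and 54.9 ± 7.91 CPM (log2 -0.08, edgeR adjusted p = 0.470). Named after its values were seen, BIRC2 was called lower without T47D-TR replicate 2 (log2 -0.19, adjusted p = 0.0466) and stood at 0.016 without T47D-TR replicate 3.

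**Figure D4:**
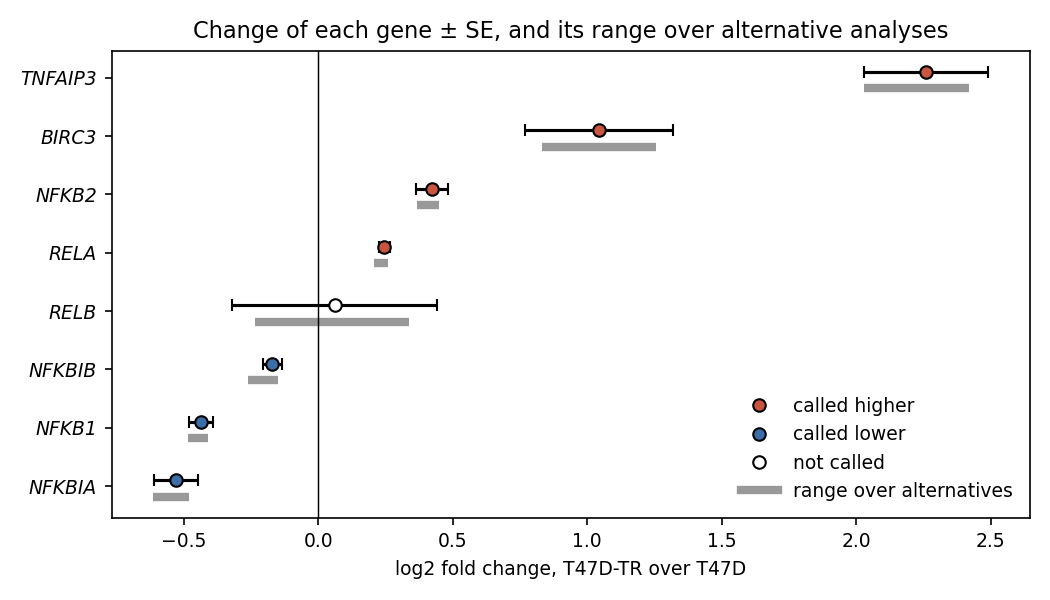
Log2 fold change of each gene, T47D-TR over T47D, from edgeR with its SE from the spread between libraries (points and whiskers), above the range over up to 13 alternative analyses (grey bars). TNFAIP3 (2.26) and BIRC3 (1.04) lie to the right, NFKBIA (-0.53) and NFKB1 (-0.44) to the left, and only the grey bar of RELB crosses 0.

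Among the T47D-TR libraries the members varied to different degrees, with coefficients of variation from 0.466% (NFKB1) to 38.7% (RELB), and NFKBIA between at 10.2%. The most variable, RELB, BIRC3 and TNFAIP3, were also the members of lowest mean CPM. T47D-TR replicate 3 held 45.4% of the mean of the other T47D-TR libraries for RELB, 57.8% for BIRC3 and 68.2% for TNFAIP3, but 99.9% for each of NFKB1, NFKB2 and RELA, 96.7% for NFKBIB and 119% for NFKBIA. It was the lowest T47D-TR library for 3 of the 8 members and for 38% of all tested genes. The cause of that library's difference was not tested. With it left out, TNFAIP3, BIRC3, NFKB2 and RELA remained higher and NFKB1 and NFKBIA lower, with log2 fold changes of 2.42, 1.26, 0.42, 0.25, -0.43 and -0.61, and NFKBIB was not called (adjusted p = 0.0690).

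In order of level per kilobase, T47D had NFKBIA (30.7), RELA (27.4), NFKB1 (12.1), NFKBIB (11.8), NFKB2 (9.19), RELB (1.75), BIRC3 (1.05) and TNFAIP3 (0.851), and only NFKB1 and NFKBIB overlapped as neighbours. In T47D-TR the order was RELA (32.4), NFKBIA (21.3), NFKB2 (12.3), NFKBIB (10.4), NFKB1 (8.98), TNFAIP3 (4.06), BIRC3 (2.15) and RELB (1.81), with only BIRC3 and RELB overlapping. On this scale RELA and NFKBIA changed places at the top, NFKB2 and NFKB1 in the middle, and TNFAIP3 left the last place. The first of these exchanges depend on the exon lengths used. In CPM, RELA was above NFKBIA and NFKB1 above NFKB2 in every library of both groups. TNFAIP3 was also the member used to look for genes of like pattern. Over the 6 libraries its log2 CPM was closest to those of CDC42SE1, ZNF791 and TGFA (Pearson's r at or above 0.999), a description only, since 22.3% of tested genes exceeded 0.9 over these 2 groups of 3.

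The other genes of the pathway were taken from lists and are given by role. Of 5 further members of the family, 1 rose, 1 fell and 3 were not called (median log2 fold change 0.01). Among all tested genes 32.5% were called higher and 30.5% lower. BCL3, an atypical IkB that works in the nucleus with p50 and p52 dimers, had 116, 150 and 125 counts in T47D and 518, 573 and 401 in T47D-TR. Its level went from 6.87 ± 0.728 to 26.6 ± 2.74 CPM (log2 change 1.95 ± 0.12, edgeR adjusted p = 1.37e-08). NFKBID, another nuclear IkB, fell from 5.61 ± 0.445 to 3.61 ± 0.408 CPM (edgeR adjusted p = 0.00213). NFKBIZ, the third of them, was at 4.29 ± 0.654 and 3.50 ± 0.589 CPM (edgeR adjusted p = 0.177), and voom with quantile normalization called it lower (limma adjusted p = 0.0307). The nuclear IkB genes therefore did not share 1 direction.

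Of 12 listed ligand genes, 7 were in the table and 4 could be tested. Of these 3 rose, where 32.5% of all tested genes were called higher. The other, TNFSF12, was not called (log2 0.63, edgeR adjusted p = 0.0569). It was called higher without T47D replicate 2 (adjusted p = 0.0133) or without T47D-TR replicate 3 (adjusted p = 0.0204). TNF itself was not in the table used here. IL1A, the interleukin-1 alpha gene, had 0, 2 and 1 counts in T47D and 24, 38 and 45 in T47D-TR, a ratio of 36.3 with a 95% exact (Clopper-Pearson) counting interval of 12.1 to 179. IL1B, the interleukin-1 beta gene, had 1, 0 and 0 against 21, 29 and 38 counts, a ratio of 89.6 with an interval of 15.7 to 3578. The fitted log2 changes rest on single counts in T47D: that of IL1A went from 5.03 to 5.85 without T47D replicate 2, and that of IL1B from 6.04 to 7.91 without T47D replicate 1. Both stayed low in T47D-TR, at 1.95 ± 0.710 and 1.61 ± 0.591 CPM. IL18, a related cytokine gene at a far higher level, rose from 40.3 ± 2.41 to 58.2 ± 5.31 CPM (edgeR adjusted p = 4.42e-05). The list's median of 2.83 rests on 4 genes and lies midway between TNFSF12, which was not called, and IL1A. The fitted value of IL1A depends on the prior count of the fit.

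Of 12 tested receptor genes, 8 were called higher and 2 lower, against 32.5% and 30.5% of all tested genes, with a median of 0.85 against 0.0019. TNFRSF1B, the second TNF receptor gene, rose from 6.51 ± 0.903 to 25.3 ± 3.64 CPM (edgeR adjusted p = 6.44e-08). The Toll-like receptor genes TLR6 (log2 1.62) and TLR4 (log2 1.20, from 40.7 ± 1.96 to 93.2 ± 11.3 CPM) rose, while TLR3, a sensor of double-stranded RNA, fell from 6.41 ± 0.684 to 2.95 ± 0.193 CPM. TNFRSF12A, the TWEAK receptor gene, fell by 0.41 on the log2 scale. TNFRSF1A, the main TNF receptor gene, named after its values were seen, went from 158 ± 1.73 to 337 ± 3.98 CPM (log2 1.10 ± 0.01, edgeR adjusted p = 2.96e-10).

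Downstream of the receptors, genes were called in both directions, as over the whole table. Of 22 adaptor and ubiquitin ligase genes 8 rose, 5 fell and 9 were not called (median 0.09). Among all tested genes 32.5% were called higher and 30.5% lower, so this split is not read as particular to the list. Without T47D replicate 2 or without T47D replicate 3, 3 were called lower. IRAK2 (log2 1.90), a kinase-like adaptor of interleukin-1 and Toll-like receptors, rose from 11.0 ± 0.811 to 41.2 ± 8.77 CPM, and its relative IRAK1 fell from 259 ± 6.80 to 174 ± 3.94 CPM. CARD10 (0.94), a scaffold that leads to IKK, and the Toll adaptor gene TIRAP (0.80) rose, and UBE2N (-0.52), the enzyme that makes lysine-63 ubiquitin chains, and TRAF5 (-0.49) fell.

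Of 13 kinase genes 6 rose, 4 fell and 3 were not called (median 0.09), beside 32.5% higher and 30.5% lower among all tested genes. The subunits of the IKK complex went apart. IKBKB, the canonical IKK-beta gene, had 349, 396 and 358 counts in T47D and 704, 771 and 643 in T47D-TR, a log2 fold change of 0.97 ± 0.04 (edgeR adjusted p = 9.89e-08). IKBKG, the gene of the scaffold NEMO, fell from 5.65 ± 0.139 to 3.61 ± 0.933 CPM (edgeR adjusted p = 0.00624), and CHUK, the IKK-alpha gene, named after its values were seen, from 65.5 ± 1.71 to 51.1 ± 5.33 CPM (edgeR adjusted p = 0.000713). MAP3K14, which encodes NIK, the kinase that starts the processing of p100, fell from 100.5 ± 3.65 to 73.2 ± 14.5 CPM (edgeR adjusted p = 0.00264), with replicate 3 lowest of the T47D-TR libraries at 954 counts. TANK (0.83) and MAP3K8 (0.51) rose and MAP3K3 (-0.41) fell.

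Of 16 tested inhibitor genes beyond the members, 7 rose and 5 fell (median 0.14), beside 32.5% and 30.5% of all tested genes. Only 3 were called higher without T47D-TR replicate 1, and 4 without T47D replicate 2, without T47D-TR replicate 2 or with voom. ZC3H12A, which encodes a ribonuclease that degrades cytokine transcripts, rose from 13.7 ± 0.668 to 26.5 ± 1.22 CPM (edgeR adjusted p = 4.04e-07). TNIP2, a partner of A20, fell from 34.4 ± 0.916 to 22.0 ± 1.26 CPM, and USP18 (-1.17) and NLRC5 (-0.39) fell too. ITCH (0.37), another partner of A20, rose. SIGIRR (0.44) was called, but the call ended in 5 alternatives, DESeq2 among them (adjusted p = 0.0802).

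Known kappaB targets were called higher in 15 of 25 tested genes and lower in 7, against 32.5% and 30.5% of all tested genes, with a median of 0.74 against 0.0019 for all tested genes. CXCL8, the interleukin-8 gene, had 5, 11 and 3 counts in T47D and 104, 147 and 70 in T47D-TR (log2 4.07 ± 0.46, edgeR adjusted p = 7.47e-07), and its log2 change was 4.68 without T47D replicate 2. CXCL2, a related chemokine gene, rose from 2.15 ± 0.273 to 16.4 ± 0.534 CPM and the growth factor gene BMP2 from 0.601 ± 0.281 to 3.27 ± 0.317 CPM. The targets that fell included CCL2, the monocyte chemokine gene, with 30, 35 and 31 counts in T47D and 0, 0 and 3 in T47D-TR, so that T47D was 31.4 times higher with an interval of 10.4 to 155. All CCL2 counts of T47D-TR came from replicate 3, and without it the fitted log2 change went from -4.81 to -8.02, a value that depends on the prior count since no count was left in T47D-TR. CSF1 (-1.02), the macrophage growth factor gene, and CD83 (-0.77) fell as well. PTGS2, the cyclooxygenase-2 gene, chosen after its values were seen, had 0 counts in all T47D libraries and 9, 9 and 10 in T47D-TR, at least 9.50-fold higher when the T47D libraries together are set to 3 counts. The list thus held members that moved in both directions beside TNFAIP3 and NFKBIA, 2 kappaB-regulated genes that themselves moved in opposite directions.

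**Figure D5:**
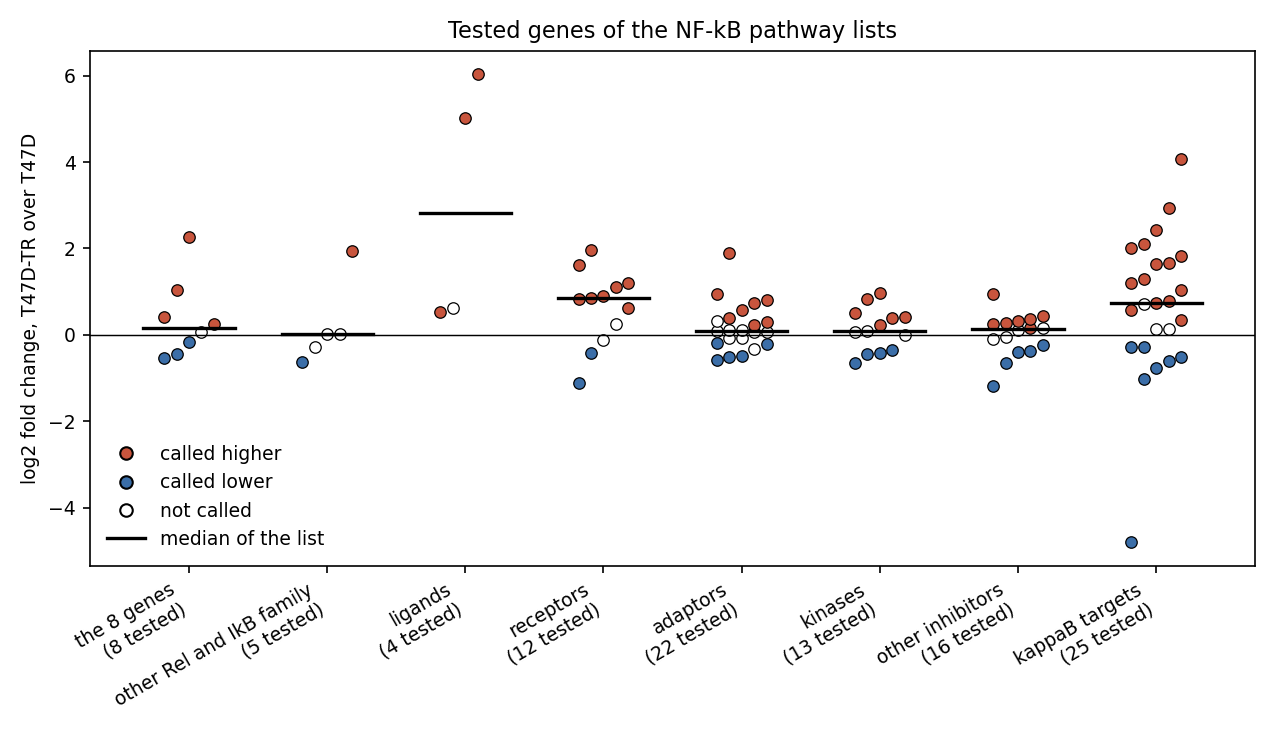
Log2 fold change, T47D-TR over T47D, of every tested gene of the 8 lists, coloured by its edgeR call, with the median of each list as a line. The medians of receptors (0.85) and kappaB targets (0.74) lie above 0, those of adaptors, kinases and other inhibitors lie between 0.09 and 0.14, and the line of the ligands rests on 4 genes.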

How the data were processed

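Whole-number read counts per gene were deposited by the authors in 1 table for 3 T47D and 3 T47D-TR libraries. HISAT2 2.1.0, DESeq and the build GRCh38 are named in the submitters' processing notes, and the counter, its strand setting and its annotation are not stated in the sources used here. The authors also deposited group means as a normalized signal, a fold change as a linear ratio, its log2 value, and a p-value with its adjusted form, none of which is printed here. Libraries were grouped by title.

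Counts were scaled with TMM and filtered with filterByExpr (minimum count 10, total 15), and T47D-TR was compared with T47D over all 15961 tested genes by edgeR 4.0.16 (glmQLFit, glmQLFTest, 2-sided). Calls have a Benjamini-Hochberg adjusted p under 0.05. SEs come from log2 CPM with a prior count of 2, which narrows them for low counts. The fitted log2 fold changes use the default prior count of edgeR instead. In simulated data of 15723 genes, 50 were changed at each fold, a far smaller share than the 63% of tested genes called in the data. There 42% of 1.25-fold, 62% of 1.5-fold, 84% of 2-fold and 100% of 4-fold changes were recovered, with 8 false calls among 152. These rates therefore do not give the sensitivity of the comparison itself. A level of 3 counts is 0.153 to 0.178 CPM. Intervals and floors cover counting error only. DESeq2 1.42.0 and limma 3.58.1 were alternatives.

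The members and gene lists were chosen with earlier results of these data known. Named genes are the 8 members, the other family genes and up to 3 called genes at each end of each other list. Gene positions and exon lengths come from GENCODE v29 (GRCh38). Exons of RELA and NFKBIB share 9 and 40 bases with genes on the opposite strand. Replicate numbers were not treated as pairs: the deviations of same-numbered libraries from their group means correlated at -0.02 to -0.01.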

Additional observations from a re-analysis of the deposited data

How the results depend on the processing

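The counts of calls, the medians of the lists and the log2 fold changes of 57 genes were recomputed under 13 alternatives: other scaling (RLE size factors, library size alone), DESeq2, voom with quantile normalization, other filters, the replicate block, and each library left out. The ratios, the shares and order per kilobase and the likeness of patterns were not recomputed. The counts of members called higher stayed at 4 in all of them, and those called lower were 2 or 3, the difference being NFKBIB. Leaving out 1 library gave 9047 to 10665 called genes in all, 43 to 52 pathway genes called higher (48 in the analysis above) and 22 to 25 lower (24). The other alternatives gave 8010 to 10514 called genes, 38 to 52 pathway genes higher and 19 to 25 lower. The lowest of these came with the filter of a mean CPM of at least 5, which leaves 11342 genes to test, and voom gave 40 pathway genes higher. With the replicate block 9954 genes were called, against 10053 without it, 4 members higher and 2 lower, and 47 and 24 pathway genes. The log2 fold changes of 48 of the 57 genes kept their direction and call in each alternative that tested them. Of the 57, 40 were tested under all 13.

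The exceptions were NFKBIB and SIGIRR, whose calls ended as given above, NFKBIZ, TNFSF12 and BIRC2 as given above, GATA3, whose call ended with DESeq2 (adjusted p = 0.0607), and 3 genes that were not called in any of them and changed sign. RELB stood at -0.24 with voom and at -0.13 to 0.34 with 1 library left out, the lowest without T47D-TR replicate 2 and the highest without T47D-TR replicate 3, and was removed by the filter of a mean CPM of at least 5. REL stood at -0.028 with library size alone, -0.055 with voom and -0.054 to 0.053 with 1 library left out, the ends without T47D-TR replicates 1 and 3. NFKBIE stood at -0.022 with library size alone, -0.21 with voom and -0.070 to 0.066 with 1 library left out, the ends without T47D-TR replicate 2 and T47D replicate 3. BIRC2 stood at -0.19 to 0.016 with 1 library left out. The median of the other inhibitors, 0.14, was -0.051 with voom, and that of the ligands, 2.83, was 0.54 with the filter of a mean CPM of at least 5. The median of the receptors, 0.85, ranged from 0.57 without T47D-TR replicate 2 to 0.99 with that filter. That of the targets, 0.74, ranged from 0.47 with that filter to 0.91 with no low-count filter. Receptors called higher, 8 above, were 6 with DESeq2 and 9 with no low-count filter. The cause of these shifts was not tested. Voom moved the log2 fold changes of all tested genes by a median of -0.11, and relative to that shift NFKB1 stood at -0.36, NFKBIA at -0.46, NFKB2 at 0.48 and TNFAIP3 at 2.16. IL1B stood at 5.24 with voom. Low counts limit RELB, IL1A, IL1B, CXCL8 and CCL2.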
